A study of Homo sapiens with 12 samples.

Results

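The E2F transcription factors and the retinoblastoma family form a switch that sets when a cell copies its DNA, and 10 of their genes were followed here in the human myeloid leukaemia line HL-60/S4: E2F1, E2F2, E2F3, E2F4, E2F6, E2F7 and E2F8, and the retinoblastoma (pocket protein) genes RB1, RBL1 and RBL2. They were taken by gene symbol, each symbol matched 1 row, and they are 10 of 58288 genes in the count table. Pocket proteins bind E2F proteins and hold their target genes silent until cyclin-dependent kinases phosphorylate them. E2F1, E2F2 and E2F3 are then free to activate genes for DNA replication, E2F4 acts mainly as a repressor together with RBL1 (p107) or RBL2 (p130), E2F6 represses without pocket proteins through Polycomb group partners, and E2F7 and E2F8 are late repressors that turn the activators down again. Myeloid cells leave the cycle as they mature, and the E2F and pocket protein families are known for their part in that exit.

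RNA was sequenced from 12 libraries, 3 in each of 4 groups. HL-60/S4 cells, a line from a single patient's leukaemia, were used as they grow (promyelocytes) or after 4 days in all-trans retinoic acid (ATRA, 1 µM), which turns them into a granulocyte-like form (granulocytes), and each form received TNF-α, an inflammatory cytokine, at 16 ng/mL or an equal volume of water (vehicle) for 2 h in medium with added calcium. All cells were at 8 passages, and only the granulocyte groups had received ATRA. Because the 2 cell types were treated in independent experiments, cell type and experiment cannot be told apart where their levels are compared, and such levels are described without a test.

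Library totals ran from 22829189 to 31895061 read pairs assigned to genes. By the study's methods each library came from a flask treated on its own, and the p-values measure the spread between such flasks of 1 cell line. Whether the flasks came from separate cultures is not given in the sources used here. Summed normalised counts of 5 azurophil granule genes, which mark promyelocytes, were 7321 to 8147 CPM (read pairs scaled to a common library size) in promyelocytes with vehicle and 2134 to 2346 CPM in granulocytes with vehicle, and those of 7 maturation genes were 148.2 to 155.6 and 3853 to 4013 CPM. Both sums moved with TNF-α in promyelocytes, where the TNF-α libraries had 6065 to 6966 CPM of the azurophil genes and 239.4 to 258.3 CPM of the maturation genes, and the part of this in the promyelocyte results was not tested. In granulocytes with TNF-α they were 2145 to 2352 and 3928 to 4036 CPM. Markers of erythroid, lymphoid, fibroblast and epithelial cells summed to at most 6.004 CPM in any library, and HBB, HBA1, MS4A1 and COL1A2 were at 0 in all 12. In these bulk samples, fewer cells in cycle and less of a transcript per cell cannot be told apart.

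Several of the genes carry E2F sites of their own, and the stretches around their start sites are shown for the 4 with E2F words close to the start and for E2F6 and RBL2, which had the largest responses of the 10. The stretches run from 100 bases before to 50 bases after the RefSeq start (GRCh38.p14), each read 5′ to 3′ on the gene's strand. They lie at chr20:33686336-33686485, chr1:23531184-23531333, chr2:11466112-11466261 and chr20:37095948-37096097 on the minus strand and at chr6:20401779-20401928 and chr16:53434371-53434520 on the plus strand. Capitals mark the E2F words TTTCCCGC, TTTCCCGG, TTTCGCGC, TTTCGCGG, TTTGCCGC, TTTGCCGG, TTTGGCGC and TTTGGCGG on either strand, and the CHR word TTTGAA, a cell cycle element bound by the MuvB complex.
E2F1: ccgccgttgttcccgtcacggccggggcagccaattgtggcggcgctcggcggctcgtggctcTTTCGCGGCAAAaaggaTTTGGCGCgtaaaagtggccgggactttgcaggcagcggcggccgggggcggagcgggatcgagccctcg
E2F2: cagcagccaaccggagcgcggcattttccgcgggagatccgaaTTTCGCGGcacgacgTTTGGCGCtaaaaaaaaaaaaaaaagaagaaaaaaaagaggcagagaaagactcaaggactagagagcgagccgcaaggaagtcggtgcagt
E2F3: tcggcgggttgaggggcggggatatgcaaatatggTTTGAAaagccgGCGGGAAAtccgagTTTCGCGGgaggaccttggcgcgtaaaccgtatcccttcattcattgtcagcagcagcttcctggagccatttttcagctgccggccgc
RBL1: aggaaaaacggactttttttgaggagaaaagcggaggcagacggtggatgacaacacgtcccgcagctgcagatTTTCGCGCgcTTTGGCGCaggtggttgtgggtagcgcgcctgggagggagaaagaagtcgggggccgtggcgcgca
E2F6: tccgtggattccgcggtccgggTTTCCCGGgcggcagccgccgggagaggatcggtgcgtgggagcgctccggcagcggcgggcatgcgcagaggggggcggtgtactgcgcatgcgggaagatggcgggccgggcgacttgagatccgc
RBL2: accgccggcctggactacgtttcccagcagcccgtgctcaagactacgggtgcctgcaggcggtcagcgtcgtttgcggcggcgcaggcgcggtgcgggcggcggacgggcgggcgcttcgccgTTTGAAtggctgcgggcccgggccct
E2F1 held 3 E2F words, beginning 37, 33 and 20 bases before the start, and the first overlaps the second, which lies on the other strand. E2F2 held words at 57 and 42 bases, E2F3 at 53 and 39 bases with a CHR word at 65, and RBL1 at 26 and 16 bases before the start. E2F6 held TTTCCCGG at 183 bases, outside the stretch shown, and at 78 bases. RBL2 held no E2F word, and its CHR word began at base 25 of the transcript. The start used for RBL2 lay 494 bases inside the gene, so the 250 bases scanned before it did not reach the gene's first base. Second entries of RBL2 and E2F3, starting 1642 and 1708 bases inside their genes, held none of the words. Of the 9 genes with an entry, 5 thus held an E2F word within the full window of 250 bases before to 50 after the start, against 6.19% of the 35116 RefSeq promoters. The CHR word was in 2 of the 9 genes and in 15.2% of promoters, and the NF-κB consensus, the site of the main transcription factor downstream of TNF-α, was in 0 of the 9 and in 11.3% of promoters. A match is a word in the sequence and not a measured binding site. E2F8 was not among the RefSeq promoters used here, and the entry for RB1 began 172699 bases inside the gene and held none of the words.

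Levels are given as CPM scaled by the TMM method over all 12 libraries, and fold changes come from a fit of each cell type alone, so a fold can differ a little from the ratio of 2 means. All 10 genes passed the filter on low counts in both cell types, with 340 read pairs or more in every library for 9 of them and 49 to 99 for E2F7. Per kilobase of exon, which allows genes of different length to be compared, E2F4 was the most abundant of the 7 E2F genes in all 4 groups, with a mean share of 33.7% ± 1.41 (SD, n = 3) of their summed level in promyelocytes with vehicle and 39.9% ± 1.69 in granulocytes with vehicle. E2F7 held under 1% in every group, between 0.356% and 0.677%. The share of E2F1 was 21.0% ± 0.45 in promyelocytes with vehicle and 8.04% ± 0.57 in granulocytes with vehicle, the widest gap between the cell types among the E2F genes.

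The 2 cell types with vehicle did not overlap in the level of any of the 10 genes, as was so for 74.4% of 18124 genes. In promyelocytes the mean CPM was higher for E2F1, by 3.80-fold, and for E2F2, E2F3, E2F4, E2F6, E2F8 and RBL1, by 1.18- to 1.46-fold. In granulocytes it was higher for E2F7 (1.30-fold), RB1 (1.25-fold) and RBL2 (1.51-fold). Summed per kilobase, the 7 E2F genes stood at 99.6 ± 3.20 CPM per kb in promyelocytes and 68.4 ± 1.78 in granulocytes, while the 3 pocket protein genes stood at 48.7 ± 1.21 and 57.3 ± 0.62 (SD, n = 3, vehicle). The granulocytes with vehicle thus had less summed transcript of these 7 E2F genes and more of the 3 pocket protein genes at once, a ratio of 1.19 ± 0.04 against 2.05 ± 0.11.

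**Figure D1:**
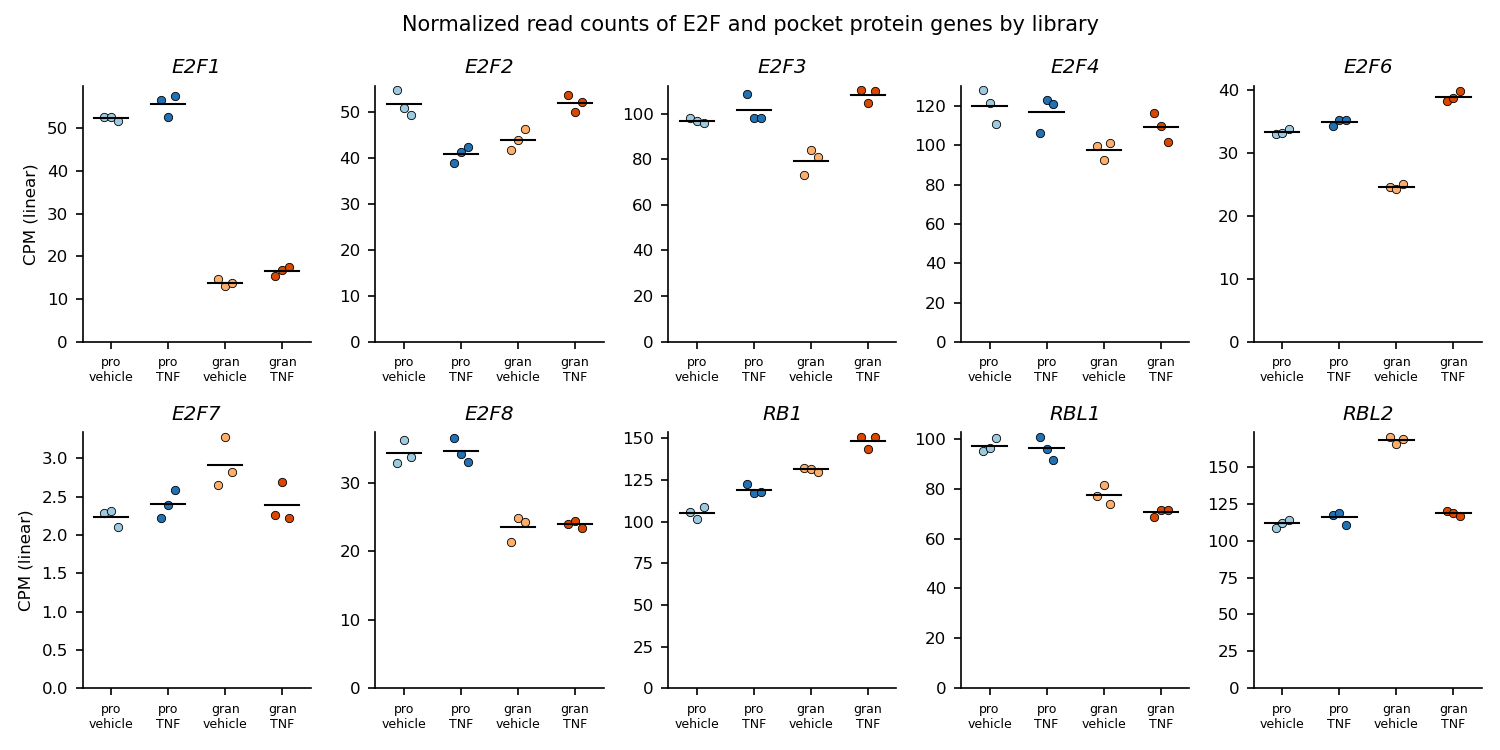
Normalised read counts (CPM, linear axis from 0) of the 10 genes in each of the 12 libraries. Points are libraries, horizontal bars are the mean of 3, and blue and orange mark promyelocytes and granulocytes (pale for vehicle, dark for TNF-α). RBL2 is highest in granulocytes with vehicle, at 165.7 to 170.2 CPM, with the other 3 groups between 108.9 and 120.3 CPM.

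Fewer of the genes changed with TNF-α in promyelocytes than in granulocytes, as was so over all genes, and different members moved in different directions. In promyelocytes 2 of the 10 passed the threshold (edgeR quasi-likelihood test, Benjamini-Hochberg adjusted p under 0.05), with E2F2 lower and RB1 higher, against a background of 14.8% of all 16250 genes tested (8.15% higher and 6.65% lower). In granulocytes 8 of the 10 passed, against 49.2% of 16944 genes (24.4% higher and 24.8% lower): E2F1, E2F2, E2F3, E2F4, E2F6 and RB1 were higher, and RBL1 and RBL2 were lower. The TNF-α and vehicle libraries did not overlap for 4 of the 10 genes in promyelocytes, where this held for 30.9% of genes tested, and for 8 of the 10 in granulocytes, where it held for 55.1%. The 8 in granulocytes are the 8 that passed the test. The response itself differed between the cell types, by the interaction term of a model of the 12 libraries together, for 4 of the 10 (E2F2, E2F3, E2F6 and RBL2), against 24.0% of 18124 genes.

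**Figure D2:**
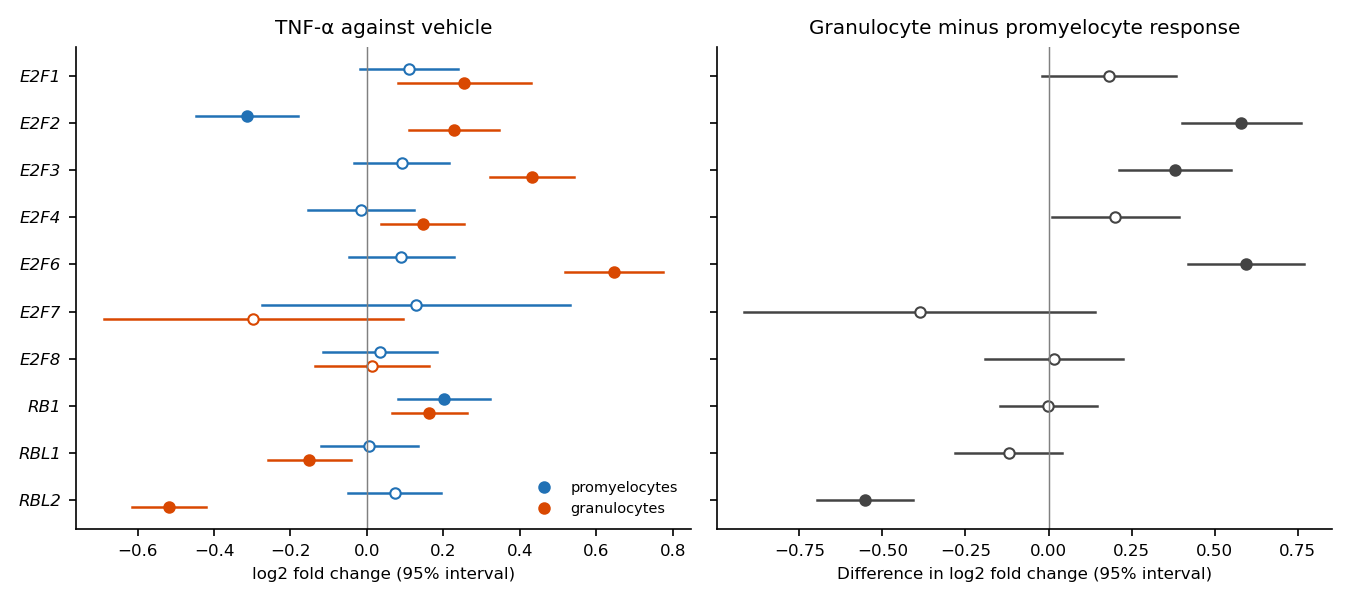
Left, log2 fold change between TNF-α and vehicle in promyelocytes (blue) and granulocytes (orange), and right, the granulocyte response minus the promyelocyte response, with 95% intervals. Filled points passed the adjusted threshold of 0.05. E2F2 moves down in promyelocytes and up in granulocytes, and the interval of E2F7 is the widest in each comparison.

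E2F1 (ENSG00000101412.12, chr20:33675683-33686404, minus strand, hg38) encodes the best known of the activating factors. Its normalised counts were 52.67, 52.61 and 51.62 CPM in promyelocytes with vehicle and 56.45, 52.49 and 57.58 CPM with TNF-α. In granulocytes they were 14.59, 12.95 and 13.75 CPM with vehicle and 15.37, 16.69 and 17.59 CPM with TNF-α. The TNF-α libraries thus lay above all vehicle libraries in granulocytes and overlapped with them in promyelocytes. In granulocytes E2F1 rose 1.19-fold (log2 fold change 0.25, SE 0.09, adjusted p = 0.0126), while in promyelocytes the log2 fold change was 0.11 (SE 0.06, adjusted p = 0.266). The difference between the responses was 0.18 (SE 0.10, adjusted p = 0.193), so the data do not show that they differed. The granulocyte call was lost by DESeq2 (adjusted p = 0.0565) and without vehicle replicate 2 (0.0703 by edgeR) or TNF-α replicate 3 (0.0561 by edgeR). It was also lost when trends with GC content and gene length were removed (log2 fold change 0.10, adjusted p = 0.354). Even with TNF-α, E2F1 in granulocytes stayed below every promyelocyte library.

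E2F2 (ENSG00000007968.6, chr1:23506430-23531220, minus strand) was the member that moved in opposite directions. It is an activator that shares much of its DNA binding with E2F1. In promyelocytes it stood at 54.83, 50.92 and 49.41 CPM with vehicle and at 38.95, 41.24 and 42.46 CPM with TNF-α, all 3 lower. In granulocytes it stood at 41.77, 43.83 and 46.18 CPM with vehicle and at 53.72, 50.05 and 52.24 CPM with TNF-α, all 3 higher. The fold was 0.804 in promyelocytes (log2 fold change -0.31, SE 0.06, adjusted p = 0.00157) and 1.17 in granulocytes (0.23, SE 0.06, adjusted p = 0.00132), and the responses differed by 0.58 on the log2 scale (SE 0.09, adjusted p = 1.34e-05). When trends with GC content and gene length were removed, the granulocyte value was 0.11 and did not pass (adjusted p = 0.0765). In the order of mean levels, promyelocytes with TNF-α (40.9 CPM) overlapped with granulocytes with vehicle (43.9 CPM), and promyelocytes with vehicle (51.7 CPM) overlapped with granulocytes with TNF-α (52.0 CPM). With vehicle the promyelocyte libraries all lay above the granulocyte libraries, and with TNF-α they all lay below them.

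E2F3 (ENSG00000112242.14, chr6:20401906-20493715, plus strand), the third activator, had 97.87, 96.76 and 95.96 CPM in promyelocytes with vehicle and 108.4, 97.87 and 98.15 CPM with TNF-α. In granulocytes it had 73.14, 84.03 and 80.86 CPM with vehicle and 110.2, 104.8 and 109.9 CPM with TNF-α. The groups did not overlap in either cell type, although in promyelocytes the highest vehicle and the lowest TNF-α library were equal to the digits shown. E2F3 rose 1.35-fold in granulocytes (log2 fold change 0.43, SE 0.05, adjusted p = 1.68e-08), its log2 fold change in promyelocytes was 0.09 (SE 0.06, adjusted p = 0.362), and the difference of 0.38 passed the test (SE 0.08, adjusted p = 9.27e-04). With TNF-α its granulocyte libraries overlapped with the promyelocyte libraries that received TNF-α.

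E2F4 (ENSG00000205250.8, chr16:67192169-67198918, plus strand), the main partner of RBL1 and RBL2, had the weakest evidence among the called genes. It ran from 110.9 to 128.5 CPM and from 106.3 to 123 CPM in promyelocytes with vehicle and with TNF-α, which overlapped (log2 fold change -0.02, SE 0.07, adjusted p = 0.899). In granulocytes it was at 99.59, 92.6 and 101.5 CPM with vehicle and at 116.6, 109.7 and 101.8 CPM with TNF-α, so that the lowest TNF-α library lay just above the highest vehicle library. The rise was 1.11-fold (log2 fold change 0.15, SE 0.05, adjusted p = 0.0221), and the responses of the cell types were not shown to differ (0.20, SE 0.09, adjusted p = 0.120). The call was lost without vehicle replicate 2 (adjusted p = 0.145), TNF-α replicate 1 (0.123) or TNF-α replicate 2 (0.0623), and in a fit of all 12 libraries (0.0528). It was also lost when replicate numbers entered as a block (0.0548) and when trends with GC content and gene length were removed (0.832).

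E2F6 (ENSG00000169016.16, chr2:11444375-11466177, minus strand), the repressor that works with Polycomb group proteins, had the largest rise. In promyelocytes it stood at 33, 33.29 and 33.94 CPM with vehicle and at 34.39, 35.23 and 35.3 CPM with TNF-α, which did not overlap but were close (log2 fold change 0.09, SE 0.07, adjusted p = 0.419). In granulocytes it stood at 24.56, 24.33 and 25.05 CPM with vehicle and at 38.25, 38.76 and 39.93 CPM with TNF-α. The rise in granulocytes was 1.57-fold (log2 fold change 0.65, SE 0.06, adjusted p = 5.47e-11), and it exceeded the promyelocyte response by 0.59 (SE 0.08, adjusted p = 6.26e-06). E2F6 thereby went from the lowest of the 4 group means to the highest, with no overlap between any neighbouring groups, and its share of the summed E2F level per kilobase in granulocytes was 8.86% ± 0.13 with vehicle and 11.5% ± 0.47 with TNF-α.

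E2F7 (ENSG00000165891.15, chr12:77021247-77065580, minus strand) and E2F8 (ENSG00000129173.12, chr11:19224063-19241620, minus strand), the late repressors, did not pass the test in either cell type. E2F7 was at 2.656, 3.278 and 2.817 CPM in granulocytes with vehicle and 2.261, 2.687 and 2.216 CPM with TNF-α, an overlap of 1 library (log2 fold change -0.30, SE 0.19, adjusted p = 0.207). In promyelocytes it was at 2.106 to 2.318 CPM and 2.22 to 2.585 CPM (0.13, SE 0.19, adjusted p = 0.721). At this depth the 95% interval of E2F7 in granulocytes ran from -0.69 to 0.09, so a fall as large as that of RBL2 lies within it. E2F8 was at 21.29 to 24.8 CPM with vehicle and 23.38 to 24.47 CPM with TNF-α in granulocytes (log2 fold change 0.01, SE 0.07, adjusted p = 0.900), and at 32.94 to 36.24 and 32.97 to 36.58 CPM in promyelocytes (0.03, SE 0.07, adjusted p = 0.798). Its 95% interval in granulocytes ran from -0.14 to 0.16. The difference between the cell types' responses was -0.39 for E2F7 (adjusted p = 0.301) and 0.02 for E2F8 (adjusted p = 0.935).

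RB1 (ENSG00000139687.13, chr13:48303751-48481986, plus strand) encodes the retinoblastoma protein, which binds mainly the activating E2F factors, and was the only member called higher in both cell types, although its promyelocyte call did not hold in every fit. It stood at 105.6, 101.5 and 108.7 CPM in promyelocytes with vehicle and at 122.5, 117.1 and 117.9 CPM with TNF-α. In granulocytes it stood at 132.2, 131.9 and 130.1 CPM with vehicle and at 151.1, 143.7 and 151.1 CPM with TNF-α. The 4 groups followed each other without any overlap. The rise was 1.15-fold in promyelocytes (log2 fold change 0.20, SE 0.06, adjusted p = 0.0208) and 1.12-fold in granulocytes (0.16, SE 0.05, adjusted p = 0.00461). The difference between the responses was -0.00099 with a 95% interval from -0.15 to 0.14 (adjusted p = 0.998).

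The promyelocyte call for RB1 was lost in 3 of the 6 fits that left out 1 library, those without vehicle replicate 1 (adjusted p = 0.0663), vehicle replicate 2 (adjusted p = 0.143) and TNF-α replicate 1 (adjusted p = 0.0685), although its log2 fold change stayed between 0.18 and 0.24. It was also lost when trends with GC content and gene length were removed (log2 fold change 0.08, adjusted p = 0.236). RB1 has an exon GC content of 36.8%, and in promyelocytes the median log2 fold change was 0.08 over the 4063 genes of lowest GC content and -0.10 over the 4063 of highest GC content, when all genes were split into 4 bins.

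RBL1 (ENSG00000080839.11, chr20:36996349-37095995, minus strand) encodes p107, which is made mostly in cycling cells. It was at 95.19 to 100.2 CPM and 91.59 to 100.9 CPM in promyelocytes with vehicle and TNF-α (log2 fold change 0.01, SE 0.06, adjusted p = 0.959). In granulocytes it was at 77.14, 81.64 and 74.02 CPM with vehicle and at 68.73, 71.33 and 71.64 CPM with TNF-α, all 3 lower. The fall was to 0.901-fold (log2 fold change -0.15, SE 0.05, adjusted p = 0.0184), and the responses of the cell types were not shown to differ (-0.12, SE 0.08, adjusted p = 0.293). The call was lost without vehicle replicate 2 (adjusted p = 0.146) or TNF-α replicate 1 (0.0685), and in a fit of all 12 libraries (0.0507).

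RBL2 (ENSG00000103479.15, chr16:53433977-53491649, plus strand) encodes p130, the pocket protein of resting cells and a core part of the DREAM complex that silences cell cycle genes. It had the largest fall. In granulocytes it dropped from 170.2, 165.7 and 169 CPM with vehicle to 120.3, 118.9 and 117 CPM with TNF-α. In promyelocytes it was at 108.9, 112.2 and 114.3 CPM with vehicle and 117.6, 118.6 and 110.9 CPM with TNF-α, which overlapped. The fold in granulocytes was 0.699 (log2 fold change -0.52, SE 0.05, adjusted p = 1.13e-11), against 1.05 in promyelocytes (0.07, SE 0.06, adjusted p = 0.469), and the difference of -0.55 passed the test (SE 0.07, adjusted p = 1.12e-06). With TNF-α the granulocyte libraries came down to a range that overlapped with that of promyelocytes with TNF-α. Exons of AKTIP on the opposite strand share 610 bp with RBL2 (8.3% of its exons) and another opposite-strand gene shares 721 bp. The counting was by strand.

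The balance of the summed transcripts also stood apart in granulocytes. The summed E2F level was 68.4 ± 1.78 CPM per kb with vehicle and 83.4 ± 1.78 with TNF-α, and the summed pocket protein level was 57.3 ± 0.62 and 52.2 ± 0.56 (SD, n = 3). Their ratio was 1.19 (range 1.16 to 1.25) with vehicle and 1.60 (range 1.56 to 1.63) with TNF-α, with no overlap. In promyelocytes the ratio was 2.05 (1.92 to 2.13) with vehicle and 1.94 (1.86 to 2.03) with TNF-α, and the groups overlapped. Within the pocket proteins of granulocytes, the share of RBL2 was 40.1% ± 0.81 with vehicle and 31.1% ± 0.57 with TNF-α, and that of RB1 was 37.2% ± 0.11 and 46.2% ± 0.83. The E2F sum joins activating and repressing members. These sums were not tested and not corrected for trends with GC content and gene length. With 3 libraries against 3, an exact permutation test cannot go below p = 0.1.

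**Figure D3:**
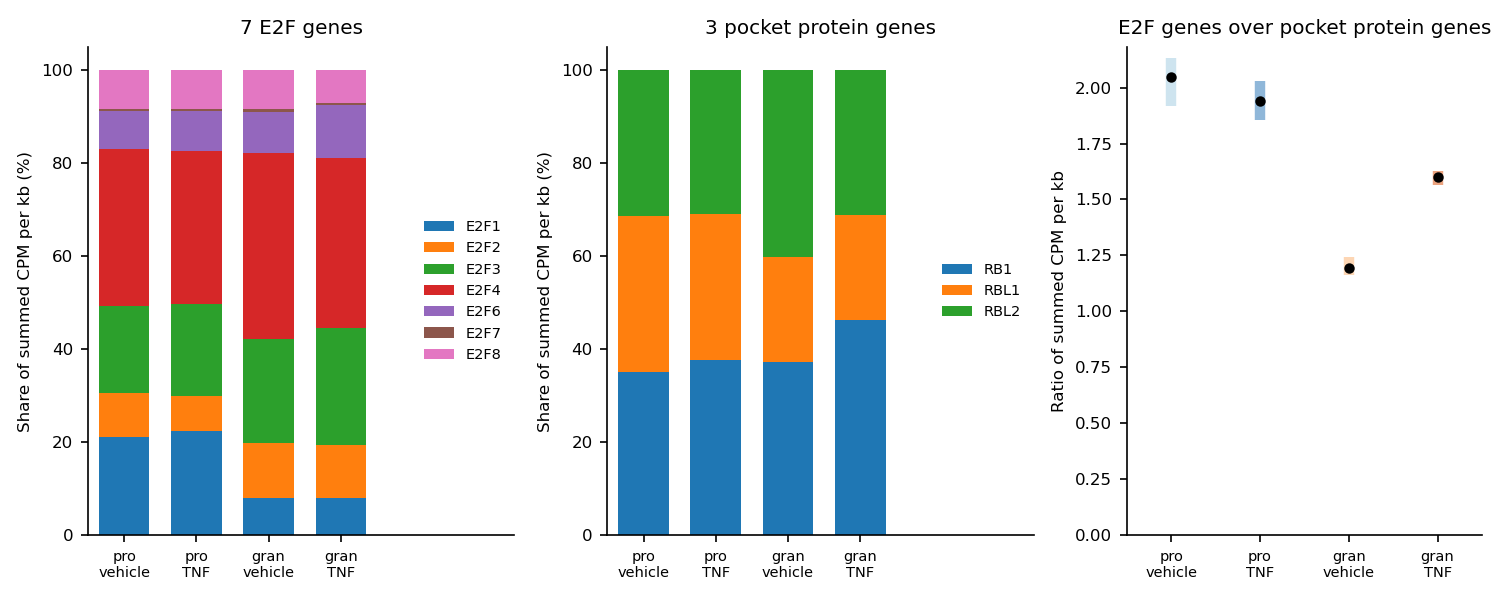
Left and middle, mean share of each gene (%) in the summed level per kilobase of the 7 E2F and the 3 pocket protein genes, by group. Right, the ratio of the 2 sums, with points for the mean and bars for the range of 3 libraries. The ratio is lowest in granulocytes with vehicle, at 1.19, and the TNF-α libraries of granulocytes lie between those and the promyelocytes.

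GC content moved with several of these changes. In granulocytes the median log2 fold change went from -0.07 in the lowest of 4 bins of GC content to 0.09 in the highest (4236 genes each). E2F1, E2F4 and E2F2 are the members of highest exon GC content, at 62.5%, 58.7% and 56.6%. With the trends with GC content and gene length removed, 5 of the 10 genes passed in granulocytes in place of 8, against 51.1% of all genes, since E2F1 (log2 fold change 0.10, adjusted p = 0.354), E2F2 (0.11, adjusted p = 0.0765) and E2F4 (0.01, adjusted p = 0.832) did not. E2F3, E2F6 and RB1 were still higher and RBL1 and RBL2 still lower. E2F2 in promyelocytes kept its call, and the differences in response between cell types held for the same 4 genes, at 0.38 for E2F2, 0.33 for E2F3, 0.65 for E2F6 and -0.50 for RBL2. Leaving out granulocyte vehicle replicate 2 also left 5 called genes, those other than E2F1, E2F4 and RBL1.

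**Figure D4:**
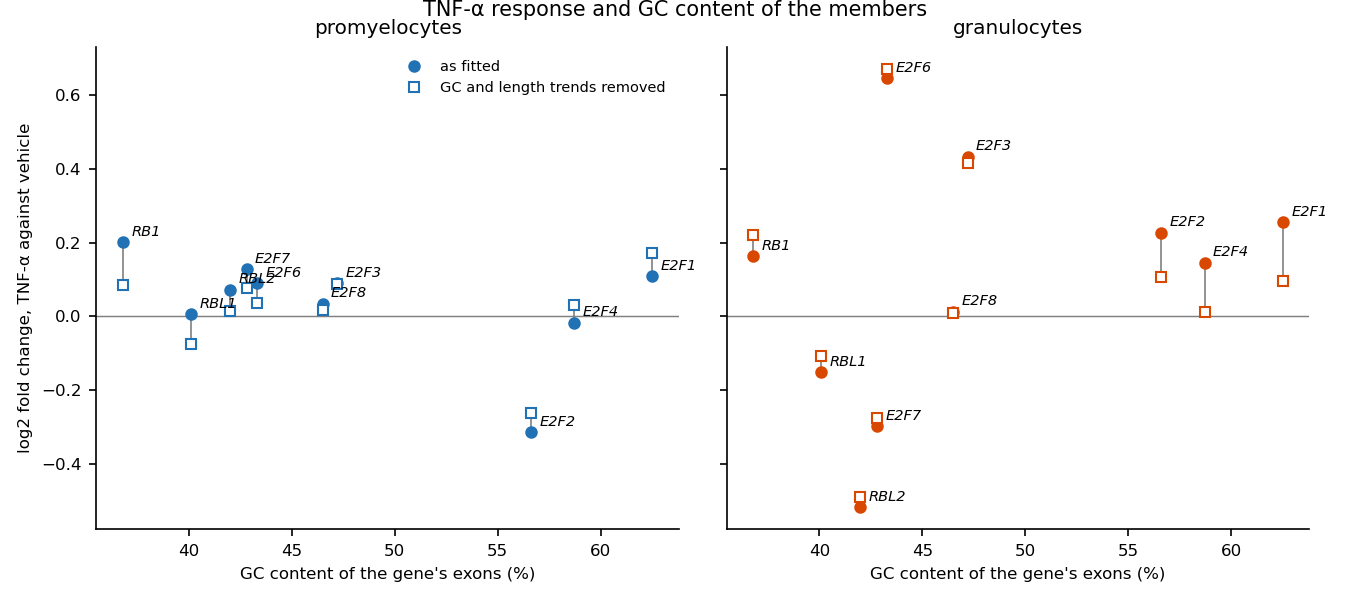
Log2 fold change between TNF-α and vehicle against the GC content of each gene's exons (%). Filled circles are as fitted and open squares are with GC content and gene length trends removed. In granulocytes E2F1, E2F2 and E2F4, on the right, move toward 0, to 0.10, 0.11 and 0.01, while E2F6 stays above 0.6 and RBL2 below -0.4.

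Around the 10 genes stand their partners, regulators and targets, taken as 7 lists of 81 genes. The DP proteins pair with E2F proteins to bind DNA. Both DP genes were lower in granulocytes: TFDP2 lay between 50.85 and 54.59 CPM with vehicle and between 34.57 and 38.84 CPM with TNF-α (log2 fold change -0.56, SE 0.06, adjusted p = 4.00e-10), and TFDP1 had a log2 fold change of -0.13 (adjusted p = 0.0382). The call of TFDP1 was lost by DESeq2 (adjusted p = 0.0754) and with the replicate block (0.0885). With no filter, and in a fit of all 12 libraries, only 1 of the 2 DP genes passed in granulocytes. In promyelocytes neither passed by edgeR, although both had non-overlapping groups (TFDP2 -0.16, adjusted p = 0.0530 and TFDP1 -0.10, adjusted p = 0.300). TFDP2 passed there by DESeq2 (adjusted p = 0.0354) and with GC content and gene length trends removed (0.00549). The response of TFDP2 differed between the cell types by -0.36 (SE 0.08, adjusted p = 0.00110).

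The DREAM complex joins RBL2 or RBL1, E2F4 and a DP protein to the MuvB core. Of 7 listed genes of DREAM and other MuvB complexes, 0 passed in promyelocytes by edgeR and 0 by DESeq2. By edgeR 14.8% of all genes passed there. Only 1 of the 7, LIN9 (log2 fold change 0.16), had an unadjusted p under 0.05. LIN54 passed there, lower, with GC content and gene length trends removed (-0.18, adjusted p = 0.0204). In granulocytes 2 were higher and 2 lower, 4 of 7 against 49.2% of all genes. LIN37 rose by 0.52 (SE 0.16, adjusted p = 0.00606) at a low level of 2.85 to 4.62 CPM, and MYBL2, which takes the place of the pocket protein on MuvB in cycling cells, rose by 0.21 (SE 0.05, adjusted p = 0.00131). LIN52 fell by 0.35 on the log2 scale (SE 0.12, adjusted p = 0.0105) and LIN54 by 0.15 (SE 0.06, adjusted p = 0.0292). Both decreases lost their call by DESeq2 (adjusted p = 0.0599 for LIN52 and 0.0963 for LIN54). LIN54 also lost its call with the replicate block (adjusted p = 0.0582). With GC content and gene length trends removed, LIN54 (-0.10, adjusted p = 0.098) and MYBL2 (0.06, adjusted p = 0.239) lost their calls. LIN52 kept its call in both of those settings. FOXM1 (-0.05), LIN9 (-0.14) and RBBP4 (0.00) did not pass. FOXM1 passed, lower, with GC content and gene length trends removed (-0.13, adjusted p = 0.0261).

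Of 13 corepressor genes of pocket proteins and E2F6, 2 were higher in promyelocytes, where 8.15% of all genes were. These were ARID4B (log2 fold change 0.32, adjusted p = 0.00219) and YAF2 (0.23, adjusted p = 0.0424). YAF2 lost its call by DESeq2 (adjusted p = 0.0508), with the replicate block (0.0856) and with GC content and gene length trends removed (0.244). In granulocytes 2 were higher, SIN3A (0.30, adjusted p = 5.61e-06) and HDAC2 (0.19), and 4 were lower, SIN3B (-0.30, adjusted p = 2.74e-06), MGA (-0.29), KDM5A (-0.23) and RYBP (-0.15). These 6 of 13 compare with 49.2% of all genes. MGA and RYBP belong to the Polycomb complex that E2F6 joins. So do PCGF6, L3MBTL2, RNF2 and YAF2 of the same list, none of which passed in granulocytes. YAF2, HDAC2, MGA, KDM5A, RYBP, PCGF6, L3MBTL2 and RNF2 were named after their values were seen.

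Of 8 kinase and cyclin genes whose products phosphorylate pocket proteins, 7 were higher in granulocytes, where 24.4% of all genes were, and the median log2 fold change was 0.37 against -0.0047 over all genes. With GC content and gene length trends removed, 6 were higher and 1 was lower, where 51.1% of all genes passed in either direction. CCND1 (cyclin D1) led in both cell types. In promyelocytes it lay between 78.07 and 89.34 CPM with vehicle and between 177.2 and 189.2 CPM with TNF-α (2.24-fold, adjusted p = 1.26e-11). In granulocytes it lay between 196.2 and 217.2 CPM with vehicle and between 475.2 and 504.2 CPM with TNF-α (2.32-fold, adjusted p = 1.04e-21). In promyelocytes 2 of the 8 were higher, against 8.15% of all genes. These were CCND1 and CCNE2 (log2 fold change 0.57, adjusted p = 3.75e-05, named after its value was seen). CCND3 went another way, lower in promyelocytes (-0.50, adjusted p = 5.76e-05) and at -0.01 in granulocytes, and its responses differed (0.53, adjusted p = 2.07e-04). RNA levels say nothing of kinase activity.

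The inhibitors of these kinases showed the largest changes of any list. CDKN2B (p15), which blocks the cyclin D kinases, rose in both cell types, from 1.307, 1.656 and 1.726 CPM to 8.241, 8.29 and 8.92 CPM in promyelocytes (5.52-fold, adjusted p = 4.23e-10) and from 3.619, 2.284 and 3.052 CPM to 27.9, 26.26 and 25.01 CPM in granulocytes (8.81-fold, adjusted p = 5.78e-24). CDKN1A (p21) rose in granulocytes from 1.155, 1.589 and 1.509 CPM to 23.83, 19.17 and 18.41 CPM (14.1-fold, log2 fold change 3.82, SE 0.14, adjusted p = 9.39e-24). In promyelocytes CDKN1A had only 15 to 37 read pairs per library, its groups did not overlap, and its log2 fold change was 0.75 (SE 0.32, adjusted p = 0.133). The responses of CDKN1A differed by 3.11 (SE 0.33, adjusted p = 4.55e-08), and those of CDKN2B by 0.71 (adjusted p = 0.0128).

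The other inhibitors went both ways. CDKN2D (p19) was lower in both cell types (-0.82, adjusted p = 0.00743 in promyelocytes and -0.64, adjusted p = 3.02e-06 in granulocytes). CDKN1B (p27), which is linked to resting cells, was higher in promyelocytes (0.24, adjusted p = 0.0116) and lower in granulocytes (-0.24, adjusted p = 4.14e-04), a difference of -0.44 (adjusted p = 1.92e-04). This is the reverse of the pattern of E2F2. CDKN1C (p57) was lower in promyelocytes (-0.77, adjusted p = 0.0156), and in granulocytes its value was 0.27 (adjusted p = 0.0847), a difference of 1.07 (adjusted p = 7.99e-04). In promyelocytes CDKN1C had only 36 to 77 read pairs per library and CDKN2D 43 to 90. In granulocytes CDKN2A was higher (0.59, adjusted p = 9.10e-09) and CDKN2C lower (-0.27, adjusted p = 8.81e-05). In promyelocytes CDKN2A stood at 0.17 (adjusted p = 0.166) and CDKN2C at 0.10 (adjusted p = 0.385). With GC content and gene length trends removed, CDKN2A passed there, higher (0.225, adjusted p = 0.03985).

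The targets were listed by phase. Of 25 genes of the G1/S transition, which E2F factors activate, 1 was higher in promyelocytes and 2 were lower. Over all genes there, 8.15% were higher and 6.65% lower. RRM2, a ribonucleotide reductase subunit, was higher (log2 fold change 0.33, adjusted p = 3.29e-04). CDT1, which licenses replication origins (-0.28, adjusted p = 0.0122), and UHRF1 (-0.23, adjusted p = 0.00772) were lower. In granulocytes 5 were higher and 6 lower, 11 of 25 against 49.2% of all genes, with a median of -0.03. The number lower moved with the setting, to 2 by DESeq2, 3 with the replicate block and 9 with GC content and gene length trends removed. CDC25A, a phosphatase that activates CDK2, was the highest at 0.32 (adjusted p = 0.00129), and UHRF1, which keeps DNA methylation through replication, was the lowest at -0.42 (adjusted p = 3.08e-08). The other 4 that rose, named after their values were seen, were MCM7, CDC45, RRM2 and DNMT1, at 0.14 to 0.19.

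Of 19 genes of G2 and mitosis that DREAM represses, 14 were lower in granulocytes, where 24.8% of all genes were lower, and the median log2 fold change was -0.26. The other 5 did not pass, with values from -0.12 to 0.12, and by DESeq2 13 were lower. With GC content and gene length trends removed, 15 were lower and 1 was higher. CDC25C, the phosphatase that starts mitosis, had the largest fall, with 5.235 to 6.037 CPM in the vehicle libraries and 3.256 to 4.657 CPM in the TNF-α libraries (log2 fold change -0.62, SE 0.15, adjusted p = 8.97e-04). In promyelocytes 1 was higher (CENPE, a kinetochore motor, 0.34, adjusted p = 4.96e-04) and 1 lower (CDC20, -0.21, adjusted p = 0.0393), with a median of 0.04. Over all genes there, 8.15% were higher and 6.65% lower. The response was lower in granulocytes than in promyelocytes for 9 of the 19, against 9.88% of all genes, and the other 10 did not pass. Under other settings it was lower for 7 to 14 of the 19. It was higher for 1 of them with GC content and gene length trends removed. For CENPE the difference was -0.49 (SE 0.08, adjusted p = 3.16e-05).

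**Figure D5:**
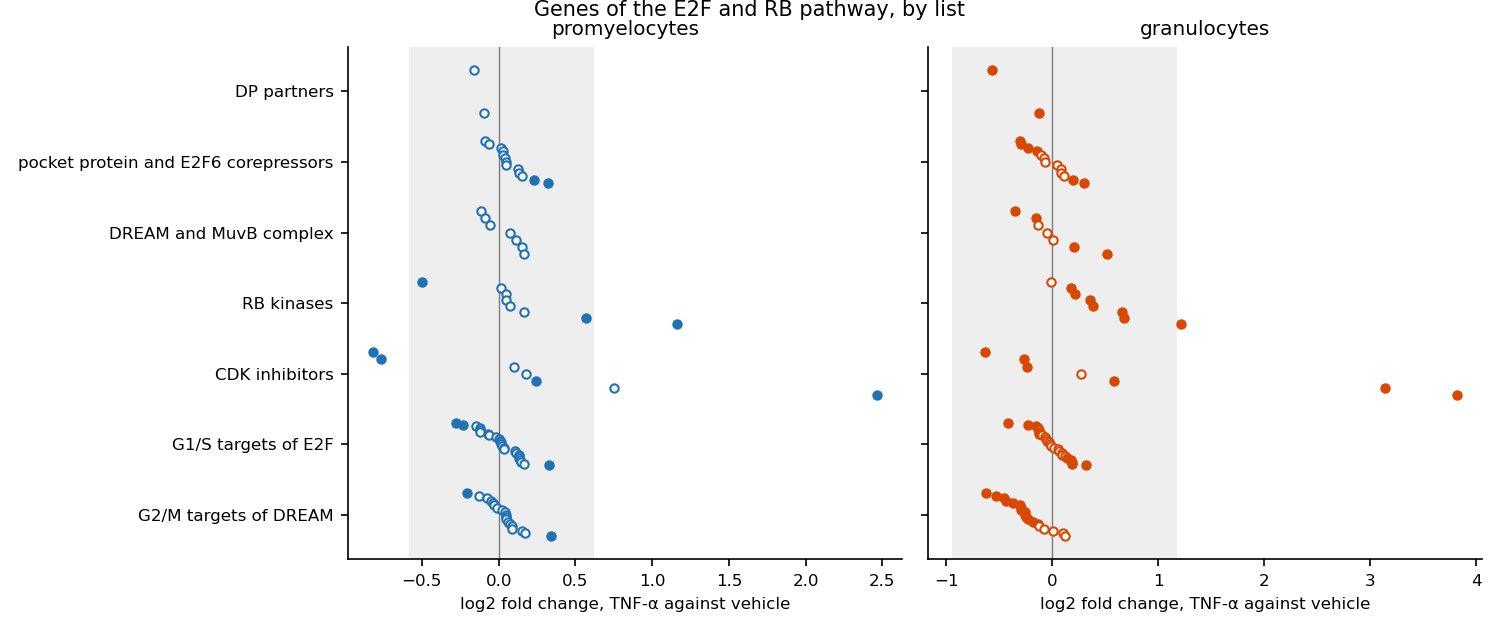
Log2 fold change between TNF-α and vehicle of the 81 genes of 7 lists, by cell type. Filled points passed the adjusted threshold of 0.05, and the grey band spans the central 90% of all genes tested. In granulocytes 7 of 8 RB kinase genes lie above 0 as called genes and 14 of 19 G2/M genes below it, while CDKN1A, CDKN2B and CCND1 lie above the band.

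Across the 12 libraries, the genes whose log2 CPM followed E2F1 most closely were ZDHHC11B, CTPS1 (a CTP synthase) and NUS1, with Pearson's r of 0.998, 0.998 and 0.997 among 18123 genes. For RB1 they were ZNF267, IL10RA (the receptor chain for interleukin 10) and LIG4 (a DNA ligase of end joining), at 0.989, 0.989 and 0.988. For E2F2 they were CRISPLD2, ZNF516 and CALM3, at 0.911, 0.906 and 0.902. These values describe 4 groups from 2 experiments that the libraries share. Among the members, E2F1 and E2F8 had an r of 0.960 and E2F3 and E2F6 one of 0.936, while E2F1 and E2F2 had -0.15.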

How the data were processed

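Raw counts were deposited by the authors as 1 table of 58288 genes by 12 libraries. Per the labels and the file headers, ribosomal RNA was depleted, reads were aligned to hg38 with STAR 2.5.3a, and read pairs were counted per gene of GENCODE 27 by featureCounts 1.5.2 on the reverse strand, primary alignments only. The authors deposited these counts without normalisation, and the gene length that the table also holds was used for levels per kilobase. Library totals were 22829189 to 31895061 read pairs, and the precision of a comparison is limited by 3 libraries per group. Symbols were matched for 57577 genes from the reference annotation. Promoter windows are from RefSeq (GRCh38.p14), and all 11 entries of the members equalled the hg38 sequence.

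Promyelocyte and granulocyte libraries were fitted separately in edgeR 4.0.16 under R 4.3.3 (TMM, filterByExpr with a minimum count of 10 and a minimum total of 15, quasi-likelihood test, Benjamini-Hochberg adjustment over all genes tested, threshold 0.05). The interaction came from a fit of all 12 libraries. SE values were derived from the fold change and the F statistic. The script was tested on simulated counts. Alternatives were DESeq2 1.42.0, its size factors, no filter, the replicate number as a block, removal of trends with GC content and gene length (splines with 5 degrees of freedom), 1 fit of all libraries and each library left out. Replicate numbers were not taken as pairs, since same-numbered libraries did not deviate together.

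The 10 members and the lists were chosen with earlier results of these data known. Named in the text are all members, all genes of the DP, DREAM and CDK inhibitor lists, per list and cell type the called genes without overlap with the largest increase and decrease, and the 3 genes most correlated with E2F1, E2F2 and RB1. Genes outside this rule are named as such.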

Additional observations from a re-analysis of the deposited data

Results flagged for a closer look

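The TNF-α response differed between the cell types for 4 of the 10 genes, against 24.0% of all genes, by the interaction term of the edgeR fit of 12 libraries. On the log2 scale the granulocyte response exceeded that of promyelocytes by 0.58 for E2F2, which fell in promyelocytes and rose in granulocytes, by 0.38 for E2F3 and by 0.59 for E2F6. For RBL2 the difference was -0.55. With GC content and gene length trends removed, the difference for E2F2 was 0.38 and its granulocyte value was 0.11, no longer past the threshold (adjusted p = 0.0765). Cell type and experiment cannot be told apart in these differences.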

How the results depend on the processing

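Of the 10 genes, the number that passed in promyelocytes was 2 and became 1 when replicate numbers entered as a block (the replicate block) and 1 with GC content and gene length trends removed (1 to 2 with a library left out). In granulocytes it was 8 and became 5 with those trends removed, where 8659 of 16944 genes (51.1%) passed (5 to 8 with a library left out). The interaction held for the same 4 genes under every alternative, joined by E2F4 without promyelocyte vehicle replicate 3 (adjusted p = 0.0467). Over all genes, calls in promyelocytes ranged from 1598 to 2475 with a library left out, against 2405. The fit without promyelocyte vehicle replicate 2 gave the 1598. The replicate block gave 1833, 7721 and 3349 calls in promyelocytes, in granulocytes and for the interaction, against 2405, 8344 and 4351. It ended the calls of RB1 in promyelocytes (adjusted p = 0.0848) and E2F4 in granulocytes (adjusted p = 0.0548) and of no other member. Same-numbered libraries had residual correlations of -0.11 to -0.0025, and 0 of 3 numbers correlated best with themselves in either cell type. For the interaction, 2561 genes had a higher and 1790 a lower response in granulocytes, against 2128 and 2266 with DESeq2's size factors, 1991 and 2518 with no filter, 1943 and 2269 by DESeq2, and 2140 and 2362 with GC and length trends removed. The direction turned for CDT1 (interaction -0.013) and MCM2 (interaction -0.18) with GC and length trends removed, from 0.29 and 0.03, of which MCM2 was not called before. In that setting the sign also turned for values not called in either fit: the interaction went from 0.18 to -0.07 for E2F1, from 0.20 to -0.0094 for E2F4, from 0.02 to -0.0027 for E2F8 and from -0.00099 to 0.15 for RB1 (adjusted p = 0.0837), and the promyelocyte value from -0.02 to 0.03 for E2F4 and from 0.0067 to -0.08 for RBL1. Values near 0 of E2F4, E2F8, RB1 and RBL1 also crossed 0 with a library left out, and none of these was called. Of the 19 G2/M genes, the 9 with a lower response in granulocytes became 7 to 14 under other settings. With GC and length trends removed, 1 of the 19 had a higher response in granulocytes. The depth limits E2F7, with 49 to 99 read pairs per library.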
